A study of Homo sapiens with 4 samples.

Results

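The genes described here are those for 3 ligands of the interleukin-6 (IL-6) family (IL6, IL11 and LIF), the 3 colony-stimulating factors CSF1, CSF2 and CSF3, the stromal cytokine TSLP, and the 3 receptor chains IL6ST, OSMR and LIFR. They were taken from the count files by gene symbol and make up 10 of the 63677 genes in the count files. All 10 were among the 15398 genes that passed the filter on low counts. RNA-seq of polyadenylated RNA was done on IMR90 cells, a primary line of human fetal lung fibroblasts, at passage 5. Both IMR90 isolates in the study, I90-10 and I90-79, were transfected using the RNAiMAX reagent, and RNA was collected 72 h later. The 2 control libraries had received a non-targeting control siRNA (NTC) and the 2 HMGB1 knockdown libraries siRNA against the mRNA of HMGB1, an abundant nuclear protein that is also secreted. The study's methods name 2 different siRNAs for IMR90 and the labels do not assign them to libraries, so that isolate and siRNA may not be told apart within the knockdown group. Replicate 1 of each group came from I90-10 and replicate 2 from I90-79, so that each isolate gave 1 control and 1 knockdown library. The control libraries held 29869338 and 35317010 counted reads and the knockdown libraries 29861687 and 31086475. HMGB1 itself stood at 181 and 237 CPM (read counts scaled to the library size) in the controls and at 16.0 and 18.8 CPM upon knockdown. Its log2-fold change of −3.59 (SE 0.19, adjusted p = 0.0075) passed the thresholds of the test, but not with either knockdown library left out (adjusted p = 0.0487 without replicate 1 and 0.0324 without replicate 2).

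IL-6 family cytokines share the signal-transducing receptor chain gp130, encoded by IL6ST. IL-6 and IL-11 first bind receptors of their own and then pair gp130 with itself, LIF joins gp130 to the LIF receptor, and oncostatin M joins it to the chain encoded by OSMR. The joined chains activate JAK kinases, which phosphorylate STAT3, and STAT3 induces its own inhibitor SOCS3. The colony-stimulating factors act on blood cells: CSF1 (M-CSF) maintains macrophages, CSF2 (GM-CSF) acts on granulocytes, macrophages and dendritic cells, and CSF3 (G-CSF) drives the formation of neutrophils. TSLP, made by epithelial and stromal cells, acts on dendritic cells and innate lymphoid cells. In fibroblasts, interleukin-1 is a known inducer of IL6, LIF, CSF2 and CSF3. Many cytokine mRNAs are short-lived because their 3′ UTRs hold AU-rich elements, which are bound by decay factors, and several of these genes are part of the secretory phenotype of senescent fibroblasts.

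AU-rich elements are built from copies of the pentamer ATTTA. For CSF2, IL11, IL6 and OSMR only, the stretch richest in the pentamer was read from the hg19 genome. The other genes of the set were not scanned for such stretches. All 10 genes held at least 4 copies in the 3′ UTR of their canonical GENCODE transcript, while 71.0% of the 18349 UTRs of at least 100 bases held 1 or more (median 2 copies). At least 5 copies were held by 9 of the 10 genes and 30.6% of these UTRs, and at least 8 copies by 5 of the 10 genes and 18.6%. These shares were not matched for UTR length, which ran from 318 bases in CSF2 to 6927 in LIFR among the 10 genes. CSF2 had the highest density of the 10, with 8 copies in 318 bases, or 25.2 per kb, and 5 of them overlap in a single run. IL6 held 6 copies in 425 bases, CSF3 7 in 854, IL11 9 in 1625, TSLP 7 in 1952, LIF 7 in 3198 and CSF1 4 in 2154. Among the receptors there were 8 copies in 2197 bases for OSMR, 23 in 5987 for IL6ST and 29 in 6927 for LIFR. The nonamer TTATTTATT, which contains the pentamer, occurred 6 times in IL11, 3 times in CSF2, in 2 copies each in LIF and OSMR, and once in LIFR, and 8.89% of the UTRs held it. Capitals mark the pentamers in the stretches below, which lie at chr5:131411774-131411794 on the + strand (CSF2), chr19:55877319-55877331 on the − strand (IL11), chr7:22771331-22771345 on the + strand (IL6) and chr5:38935553-38935565 on the + strand (OSMR).
CSF2: ATTTATTTATTTATTTATTTA
IL11: ATTTATTTATTTA
IL6: ATTTAttaatATTTA
OSMR: ATTTATTTATTTA

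The promoters of these genes were searched on both strands for 6 motifs, over the 250 bases before and 50 bases after each start site in RefSeq (GRCh38.p14). LIF, CSF1 and CSF3 were not part of this search. IL6 held a match to the NF-kappaB motif GGGANTTNCC, found in 1.40% of 35116 promoters, and CSF2 a match to the CK-1 motif GAGATTCCNC of colony-stimulating factor promoters, found in 0.231%. IL11 held the AP-1 motif TGANTCA, present in 7.71%, and OSMR both AP-1 and the C/EBP motif TTGCNNAA, present in 10.5%. C/EBP matches were also found in IL6 and LIFR. Neither IL6ST nor any of the 3 TSLP start sites in the table held a match to these motifs, and no searched promoter of the set held the CRE motif TGACGTCA or the STAT motif TTCCNGGAA. A match is a run of letters and not a measured binding site. The lines below give the 80 bases from −120 to −41 of the start site, read 5′ to 3′ on the strand of the gene, for the 3 ligand genes with a match in that window and, as the gene without one, the second start site of TSLP. Capitals mark the motif. Each RefSeq promoter matched hg19 exactly once, and the windows lie at chr7:22766699-22766778 (IL6, + strand), chr5:131409362-131409441 (CSF2, + strand), chr19:55881872-55881951 (IL11, − strand) and chr5:110407291-110407370 (TSLP, + strand).
IL6: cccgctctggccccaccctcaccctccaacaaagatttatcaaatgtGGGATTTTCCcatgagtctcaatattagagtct
CSF2: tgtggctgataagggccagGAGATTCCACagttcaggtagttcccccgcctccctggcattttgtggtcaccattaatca
IL11: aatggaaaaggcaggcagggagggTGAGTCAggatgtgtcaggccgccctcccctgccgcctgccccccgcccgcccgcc
TSLP: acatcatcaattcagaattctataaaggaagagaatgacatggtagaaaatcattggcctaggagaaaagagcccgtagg

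The comparison of HMGB1 knockdown with control asked which of these genes changed when HMGB1 was lost from proliferating fibroblasts. TSLP was upregulated and CSF1 downregulated once the isolate was kept as a replicate block, and in both isolates the direction was the same. Without the block, a gene was called by edgeR's quasi-likelihood test at an adjusted p under 0.01 and a log2-fold change beyond 0.6 in either direction, and 0 of the 10 genes were called, against 0.201% of all genes tested. At an unadjusted p below 0.05 the count without the block was 3 (TSLP, CSF1 and IL6ST), against 28.3% of all genes tested. DESeq2 called 1 gene up and 1 down, against 10.0% of all genes in either direction. With the block, 14.5% of all genes tested were called, 6.68% up and 7.84% down, and the 10 genes gave 1 up and 1 down. The log2-fold change was positive for 8 genes and negative for 2, with a median of 0.37, against −0.01 over all genes tested. In 6 genes both isolates rose in CPM and in 2 genes both fell, while IL11 and LIFR moved in opposite directions. The control and knockdown values did not overlap for LIF, CSF1, TSLP, IL6ST and OSMR, as was the case for 59.9% of all genes tested. With 2 libraries against 2, an exact permutation test of a single gene cannot give a two-sided p below 0.333, so that the p-values rest on the spread estimated across all genes. In bulk RNA, a change in the number of cells that make a cytokine cannot be told apart from a change in its mRNA per cell.

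**Figure D1:**
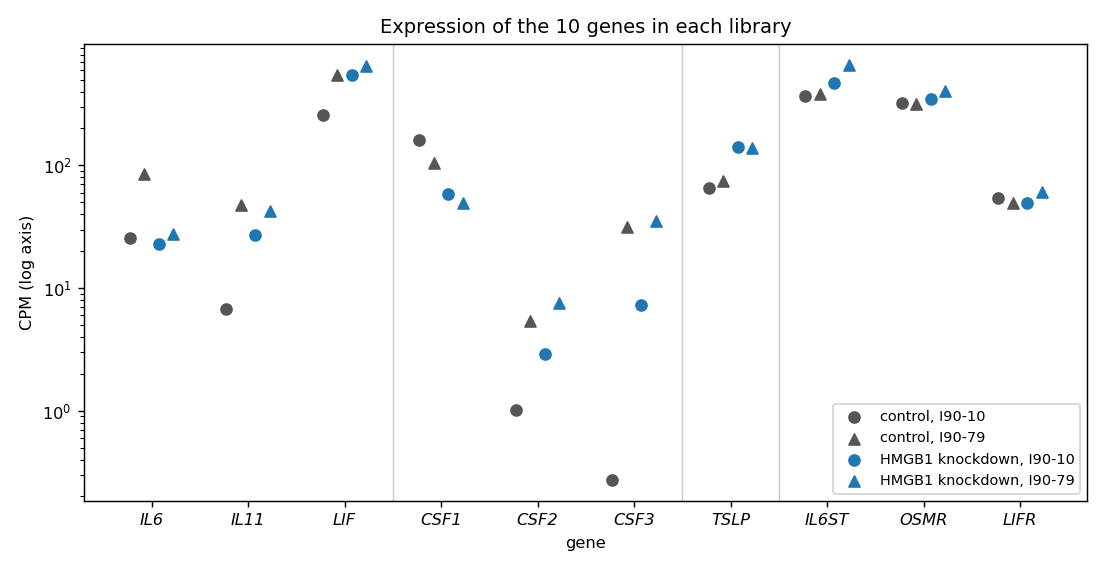
CPM of the 10 genes in each of the 4 libraries, on a log axis, with control in grey, HMGB1 knockdown in blue, isolate I90-10 as circles and I90-79 as triangles. TSLP is higher and CSF1 lower in both knockdown libraries, while the control library of I90-10 lies lowest for IL11, LIF, CSF2 and CSF3.

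IL6 (ENSG00000136244, chr7:22765503-22771621) encodes a cytokine of the acute-phase response and a main component of the senescence-associated secretome. It measured 25.6 and 84.2 CPM in the controls of I90-10 and I90-79, and 22.7 and 27.4 CPM upon knockdown. The control of I90-10 lay between the knockdown values, so that the groups overlapped, and the control of I90-79 stood above the other 3 libraries. Within I90-10 the knockdown level was 0.884 of the control level (95% interval 0.795 to 0.982), and within I90-79 it was 0.325 (0.301 to 0.350). These intervals cover counting error only. The log2-fold change of −1.14 (SE 0.54, adjusted p = 0.235) did not pass, nor did the blocked value of −0.93 (SE 0.28, adjusted p = 0.0385). Its size depended on the libraries compared: without the control of I90-10 the change was −1.75 and passed the thresholds (adjusted p = 0.0019), and without the control of I90-79 it was −0.04. Of the exonic bases of IL6, 15.8% overlap the antisense gene IL6-AS1, and reads of the pair cannot be told apart if strand was not used.

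IL11 (ENSG00000095752, chr19:55875757-55881831) encodes a cytokine known for profibrotic action on fibroblasts. It measured 6.74 and 47.8 CPM in the controls and 27.0 and 42.3 CPM upon knockdown. Only the control of I90-10 stood apart, and the groups overlapped. The knockdown level was 4.01 times the control level (3.42 to 4.71) in I90-10 and 0.885 times (0.823 to 0.951) in I90-79. The overall log2-fold change of 0.34 (SE 0.83, adjusted p = 0.823) did not pass, with or without the block (0.79, SE 0.41, adjusted p = 0.178). It passed at 2.36 (adjusted p = 0.0043) only when the control of I90-79 was left out, and took the opposite sign, at −0.47, when the control of I90-10 was left out.

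LIF (ENSG00000128342, chr22:30636436-30642840), a cytokine that keeps stem cells undifferentiated and acts widely in inflammation, was the most abundant cytokine mRNA of the set. It measured 259 and 543 CPM in the controls and 546 and 652 CPM upon knockdown. The groups did not overlap, but the control of I90-79 lay next to the lower knockdown value. The knockdown level was 2.11 times the control level (2.05 to 2.16) in I90-10 and 1.20 times (1.18 to 1.22) in I90-79. Neither the log2-fold change of 0.58 (SE 0.36, adjusted p = 0.342) nor the blocked value of 0.67 (SE 0.17, adjusted p = 0.0213) passed. Without the control of I90-10 the change was 0.14, and without the control of I90-79 it was 1.21. Antisense genes LIF-AS1 and LIF-AS2 cover 6.73% of its exonic bases.

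CSF1 (ENSG00000184371, chr1:110452864-110473614), which encodes the survival factor of macrophages, measured 161 and 104 CPM in the controls and 58.7 and 49.0 CPM upon knockdown. Both knockdown libraries lay below both controls. The knockdown level was 0.365 of the control level (0.345 to 0.386) in I90-10 and 0.471 (0.444 to 0.5004) in I90-79. The log2-fold change was −1.30 (SE 0.24, adjusted p = 0.0382), and with the block −1.27 (SE 0.12, adjusted p = 1.95e-04), which passed. Leaving out 1 library at a time gave values from −1.58 to −0.95, and without the control of I90-79 the unblocked test was passed as well (adjusted p = 0.0025). Without the knockdown of I90-10 or of I90-79 the unblocked adjusted p was 0.106 and 0.148. No other annotated gene overlaps the exons of CSF1, and its 3′ UTR holds 0 copies of GCAGTT, a 6-base word whose counts are given below.

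CSF2 and CSF3 had the lowest mean CPM of the set. CSF2 (ENSG00000164400, chr5:131409483-131411859), the GM-CSF gene, measured 1.02 and 5.37 CPM in the controls and 2.87 and 7.58 CPM upon knockdown, from 30, 198, 83 and 237 reads. Both I90-79 libraries lay above both I90-10 libraries, and the groups overlapped. The knockdown level was 2.81 times the control level (1.83 to 4.43) in I90-10 and 1.41 times (1.16 to 1.71) in I90-79. Neither the log2-fold change of 0.70 (SE 0.82, adjusted p = 0.620) nor the blocked value of 0.87 (SE 0.27, adjusted p = 0.0408) passed. Without the block, the change was −0.038 when the control of I90-10 was left out, −0.16 without the knockdown of I90-79 and 2.36 without the control of I90-79.

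CSF3 (ENSG00000108342, chr17:38171614-38174066), the G-CSF gene, measured 0.272 and 31.5 CPM in the controls and 7.27 and 35.0 CPM upon knockdown. The first of these rests on 8 reads, against 1163, 210 and 1095 in the other libraries. The knockdown level was 26.7 times the control level in I90-10, with an interval of 13.3 to 62.7, and 1.11 times (1.02 to 1.21) in I90-79. The log2-fold change was 0.40 (SE 1.57, adjusted p = 0.893) without the block, 1.20 (SE 0.63, adjusted p = 0.181) with it, and 2.41 (adjusted p = 0.315) in DESeq2 with the block, and none of these passed. Leaving out single libraries gave values without the block from −1.13 to 6.26, the highest of them without the control of I90-79.

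TSLP (ENSG00000145777, chr5:110405760-110413722) measured 64.8 and 74.1 CPM in the controls and 140 and 138 CPM upon knockdown. Both groups were tight and lay apart from each other. The knockdown level was 2.16 times the control level (2.04 to 2.28) in I90-10 and 1.86 times (1.77 to 1.95) in I90-79. The log2-fold change of 0.999 had an adjusted p of 0.0168, and with the block it was 1.002 (SE 0.10, adjusted p = 3.02e-04), which passed. Without any single library the value lay between 0.90 and 1.10, and without the control of I90-79 the unblocked test was passed as well (adjusted p = 0.0088). Without the knockdown of I90-10 or of I90-79 the unblocked adjusted p was 0.0781 and 0.0724. The only annotated overlap, with ENSG00000253613, covers 5.37% of its exonic bases.

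None of the 3 receptor chains passed with or without the block. IL6ST (ENSG00000134352, chr5:55230923-55290821), encoding gp130, measured 366 and 378 CPM in the controls and 472 and 661 CPM upon knockdown. The groups did not overlap, and the knockdown level was 1.29 times the control level in I90-10 and 1.75 times in I90-79. Without the block the log2-fold change of 0.61 had an adjusted p of 0.118. With the block the adjusted p was 0.0084, but the change of 0.59 (SE 0.12) stayed under the fold threshold of 0.6. Without the block, the change was 0.35 when the knockdown of I90-79 was left out and 0.83 when that of I90-10 was left out.

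OSMR (ENSG00000145623, chr5:38845960-38945698), the oncostatin M receptor chain, measured 325 and 319 CPM in the controls and 349 and 401 CPM upon knockdown, a blocked change of 0.22 (SE 0.10, adjusted p = 0.141). The ranges did not overlap, but the change did not pass, and without the knockdown of I90-79 it was 0.12. LIFR (ENSG00000113594, chr5:38475065-38608456) measured 53.8 and 49.4 CPM in the controls and 49.3 and 60.2 CPM upon knockdown, a blocked change of 0.08 (SE 0.12, adjusted p = 0.651). Its groups overlapped, and the knockdown level was 0.916 of control in I90-10 and 1.22 times control in I90-79.

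**Figure D2:**
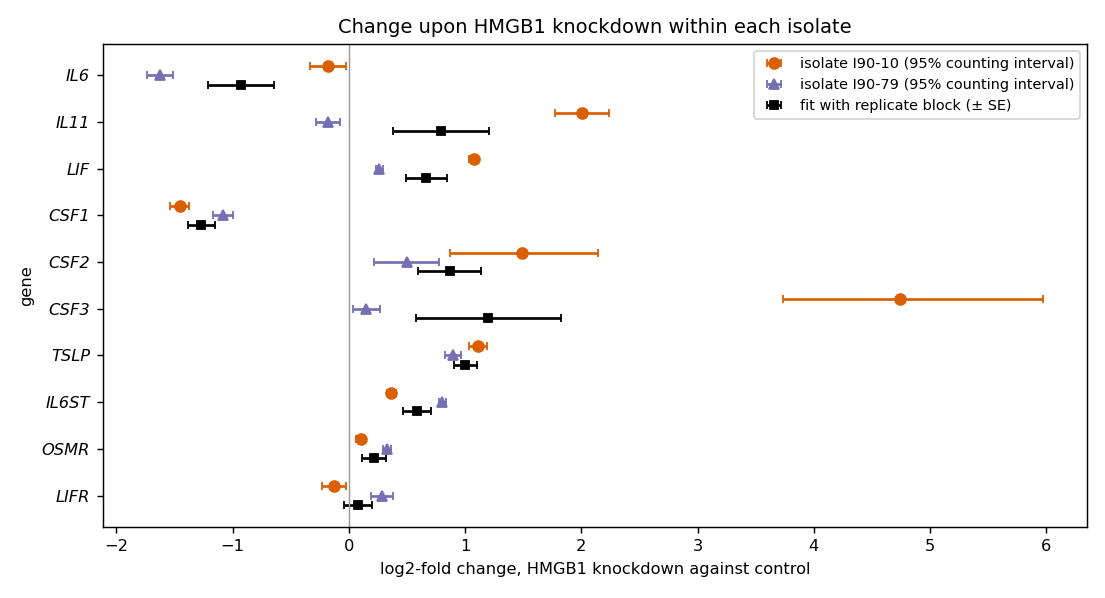
Log2-fold change of each gene in HMGB1 knockdown against control, within isolate I90-10 (circles) and I90-79 (triangles) with 95% counting intervals, and from the fit with the replicate block (squares, ± SE). CSF1 lies below 0 and TSLP above 0 in both isolates, whereas CSF3 ranges from 0.15 to 4.74 between the isolates.

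Levels of several of these cytokines differed between the control libraries of the isolates. Between the 2 control libraries, I90-79 held 3.28 times the IL6 level of I90-10, 7.09 times that of IL11, 2.10 times that of LIF, 5.26 times that of CSF2 and 116 times that of CSF3. Between the knockdown libraries the same ratios were 1.21, 1.57, 1.19, 2.64 and 4.82, each closer to 1. For TSLP the ratio was 1.14 in the controls and 0.985 upon knockdown, and for CSF1 it was 0.646 and 0.835. Each ratio rests on 1 library per isolate and group, and whether the isolates responded differently was not tested, since no residual degrees of freedom are left for that term. In the blocked fit, a comparison added after the values were seen, the isolate difference passed the thresholds for 1.67% of all genes tested and for 1 of the 10 genes, CSF2 (log2 difference 1.82, I90-79 against I90-10, SE 0.27, adjusted p = 0.00997). For CSF3 it was 3.52 (SE 0.65, adjusted p = 0.0204). The CSF2 call was lost when at least 10 counts were required in every library, and 5 of the 10 genes were called without the filter on low counts.

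On a per-length scale (RPKM, from the exonic length in the files), the control order of levels was led by LIF at 101 ± 50.6 (SD, n = 2). OSMR followed at 44.9 ± 0.563 RPKM and IL6ST at 40.1 ± 0.913 RPKM. CSF1 stood at 24.4 ± 7.43, IL6 at 20.3 ± 15.3, TSLP at 16.2 ± 1.53 and IL11 at 10.2 ± 10.9 RPKM. The lowest levels were those of CSF3 (7.16 ± 9.96 RPKM), LIFR (4.35 ± 0.263 RPKM) and CSF2 (4.08 ± 3.93 RPKM). The library values of LIF, OSMR and IL6ST each lay apart from those of the next gene in this order, while from CSF1 down those of each neighbouring pair overlapped. Upon knockdown LIF still came first, at 151 ± 18.8 RPKM, and TSLP, at 32.4 ± 0.339 RPKM, lay between the receptors OSMR and IL6ST above it and IL11 (13.0 ± 4.04 RPKM) below it. IL6, at 9.23 ± 1.22 RPKM, and CSF1, at 9.94 ± 1.27 RPKM, ranked 8 and 6 of the 10, and their library values overlapped.

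Of 94 genes listed for this pathway outside the set, 93 were found and 79 tested. Without the block 0 were upregulated and 1, CEBPD, was downregulated, and 38 had an unadjusted p below 0.05 (28.3% of all genes tested). DESeq2 called 7 up and 7 down (10.0% of all genes in either direction), and the blocked fit called 14 up and 10 down (14.5% of all genes in either direction). The median log2-fold change of the 79 genes was 0.06.

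Among the other IL-6 family ligands, 4 of 8 were tested and 0 passed with or without the block or in DESeq2. At an unadjusted p below 0.05 the count without the block was 2, against 28.3% of all genes tested. CLCF1, a ligand of the CNTF receptor, measured 11.8 and 18.0 CPM in the controls and 17.5 and 22.8 CPM upon knockdown (blocked log2-fold change 0.45, adjusted p = 0.0300). CTF1, encoding cardiotrophin 1, measured 6.09 and 5.72 CPM against 3.91 and 3.30 CPM (−0.72, adjusted p = 0.0243). OSM, the ligand of OSMR, had at most 3 reads in any library.

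Of the 12 genes listed for the receptors of single ligands, 6 were tested. IL7R, the interleukin-7 receptor chain that is also part of the TSLP receptor, rose from 68.6 and 87.0 CPM to 107 and 149 CPM with the block (0.71, adjusted p = 0.00116). IL34, another ligand of the CSF1 receptor, fell from 3.44 and 0.949 CPM to 0.554 and 0.0640 CPM, the last from 2 reads, with the block (−2.91, adjusted p = 0.00181). Without the block, leaving out 1 library at a time gave IL34 values from −5.01 to −1.63. DESeq2 called neither IL7R nor IL34 without the block and both with it. CRLF2, the other chain of the TSLP receptor, and CSF2RA, CSF2RB and CSF3R had 0 reads in all libraries, and CSF1R was at 0.104 to 0.271 CPM.

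The JAK and STAT transducers had a median log2-fold change of 0.01 over 14 genes. JAK2, one of the kinases bound to these receptors, rose from 19.8 and 24.4 CPM to 38.4 and 47.4 CPM with the block (0.96, adjusted p = 4.23e-04), and STAT2, which acts in interferon signalling, from 115 and 94.8 CPM to 194 and 148 CPM (0.70, adjusted p = 0.00113). GAB1, an adaptor downstream of gp130, fell from 35.8 and 24.0 CPM to 14.1 and 12.1 CPM (−1.17, adjusted p = 4.96e-04). JAK1 and STAT3, the main pair downstream of gp130, gave blocked changes of −0.05 (adjusted p = 0.749) and −0.10 (adjusted p = 0.430).

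Feedback inhibitors were split, with 2 of 13 tested genes up- and 5 downregulated under the block, against 6.68% and 7.84% of all genes tested. Their median log2-fold change without the block was −0.28, against −0.01 over all genes tested. SOCS3, the inhibitor that binds gp130, measured 69.1 and 117 CPM in the controls and 197 and 208 CPM upon knockdown. Both knockdown values lay above both controls, a blocked change of 1.17 (SE 0.15, adjusted p = 0.00103) that passed. SOCS4 rose as well (0.64, adjusted p = 0.00356). PTPN1, a phosphatase that acts on JAK2, fell from 153 and 157 CPM to 75.7 and 77.1 CPM (−1.02, adjusted p = 1.95e-04), and SOCS1, SOCS2, SOCS5 and PIAS2 fell with blocked changes of −0.83, −0.75, −0.69 and −0.60.

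STAT3 target genes, 12 in all, had a median log2-fold change of 0.62, against −0.01 over all genes tested. Without the block 0 were called up and 1 down, against 0.201% of all genes in either direction. With the block 5 were called up, SOCS3 among them, and 2 down, against 6.68% and 7.84% of all genes tested. JUNB, an AP-1 subunit, rose from 72.8 and 82.6 CPM to 239 and 207 CPM (1.52, adjusted p = 1.01e-04), and TIMP1, a metalloproteinase inhibitor, from 1220 and 1221 CPM to 2518 and 1882 CPM (0.83, adjusted p = 0.0016). MCL1, an inhibitor of apoptosis, and BCL6, a transcriptional repressor, rose by blocked changes of 0.83 and 0.73. CEBPD, a C/EBP factor induced by STAT3, fell from 175 and 182 CPM to 62.5 and 59.3 CPM and passed without the block as well (−1.55, SE 0.11, adjusted p = 0.0099). The kinase gene PIM1 fell with the block (−1.47, SE 0.11, adjusted p = 7.77e-05).

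Transcription factors known to act on cytokine promoters numbered 17. With the block 3 were up- and 1 downregulated, against 6.68% and 7.84% of all genes tested. CEBPB, a C/EBP factor of the IL6 promoter, rose from 122 and 209 CPM to 270 and 330 CPM (0.90, adjusted p = 0.0014), and FOSB, an AP-1 subunit, rose by 1.58 (adjusted p = 0.002). JUNB and CEBPD are also in this list.

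Of 10 factors that set the decay or stability of cytokine mRNAs, 1 rose and 1 fell with the block. The blocked shares over all genes tested were 6.68% up and 7.84% down. HNRNPD, the AU-rich element binding protein AUF1, fell from 197 and 234 CPM to 58.8 and 69.1 CPM (−1.75, SE 0.09, adjusted p = 3.43e-05), and its adjusted p without the block was 0.0104. ZC3H12A, the RNase Regnase-1 that degrades IL6 mRNA, rose from 53.2 and 83.6 CPM to 110 and 113 CPM with the block (0.74, adjusted p = 0.00616).

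**Figure D3:**
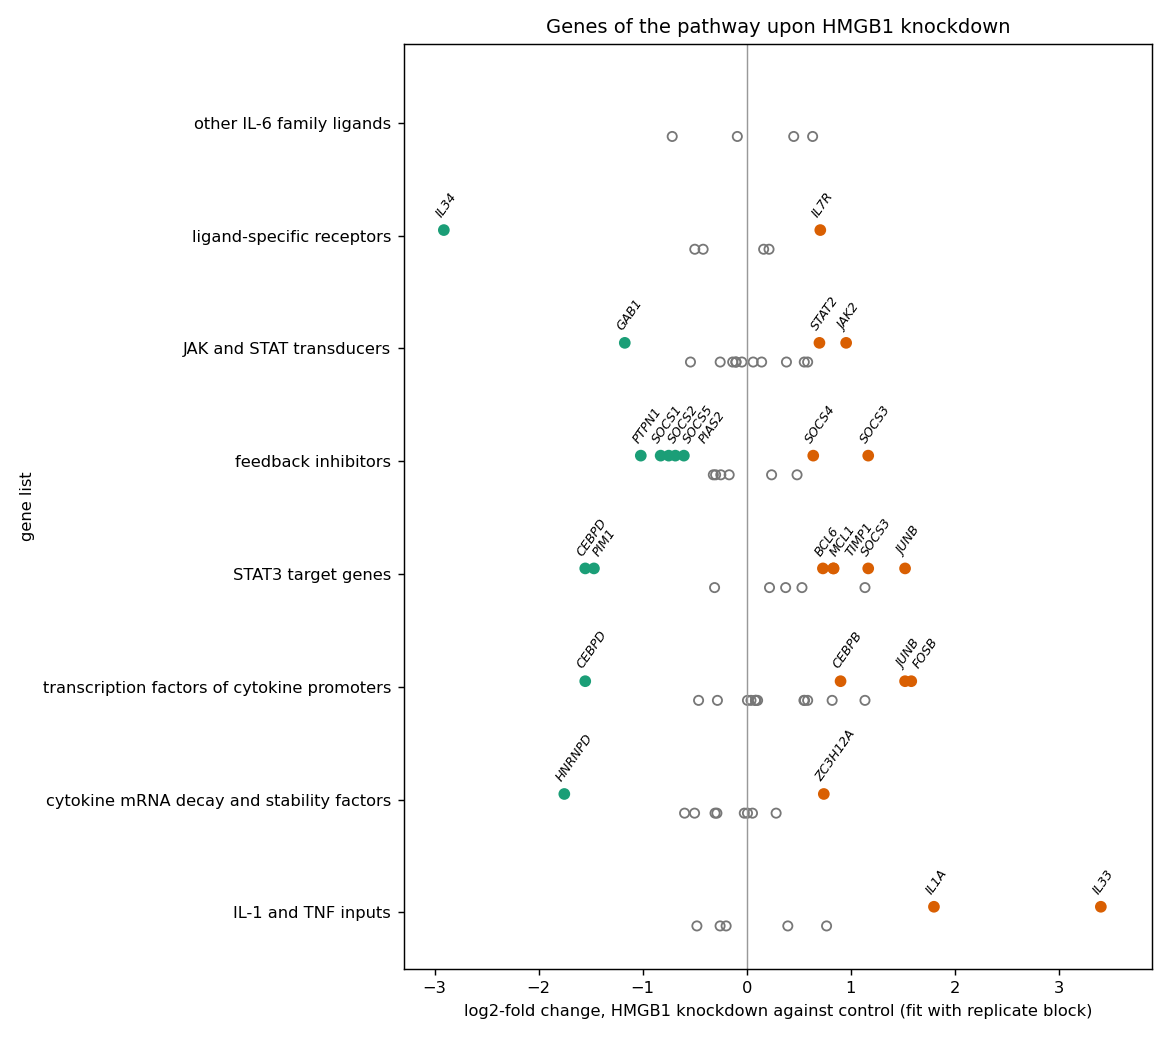
Log2-fold change upon HMGB1 knockdown, from the fit with the replicate block, of each tested gene in 8 lists of the pathway. Filled points passed the thresholds (orange up, green down), open points did not, and IL33 at 3.40 and IL34 at −2.91 are the farthest from 0.

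Of the 10 IL-1 and TNF inputs 7 were tested, and IL1A and IL33 were called up with the block, against 6.68% of all genes tested. The isolate difference was called for 1 of the 7, IL1A (log2 difference 1.70, adjusted p = 0.00582), against 1.67% of all genes tested. IL1A measured 6.60 and 32.2 CPM in the controls and 34.5 and 81.3 CPM upon knockdown, and rose with the block (1.80, SE 0.22, adjusted p = 6.51e-04). IL33, an alarmin of the IL-1 family, measured 0.952 and 10.5 CPM against 26.9 and 71.5 CPM, and also rose with the block (3.40, SE 0.35, adjusted p = 3.26e-04). IL1B measured 42.8 and 418 CPM in the controls and 159 and 339 CPM upon knockdown. As for IL11 and CSF3, the control of I90-10 was the low library for IL1B, and its blocked change of 0.77 (adjusted p = 0.202) did not pass. The part of these inputs in the values of the other cytokines was not tested. TNF had 0 reads in 2 libraries and at most 0.0813 CPM in the others.

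**Figure D4:**
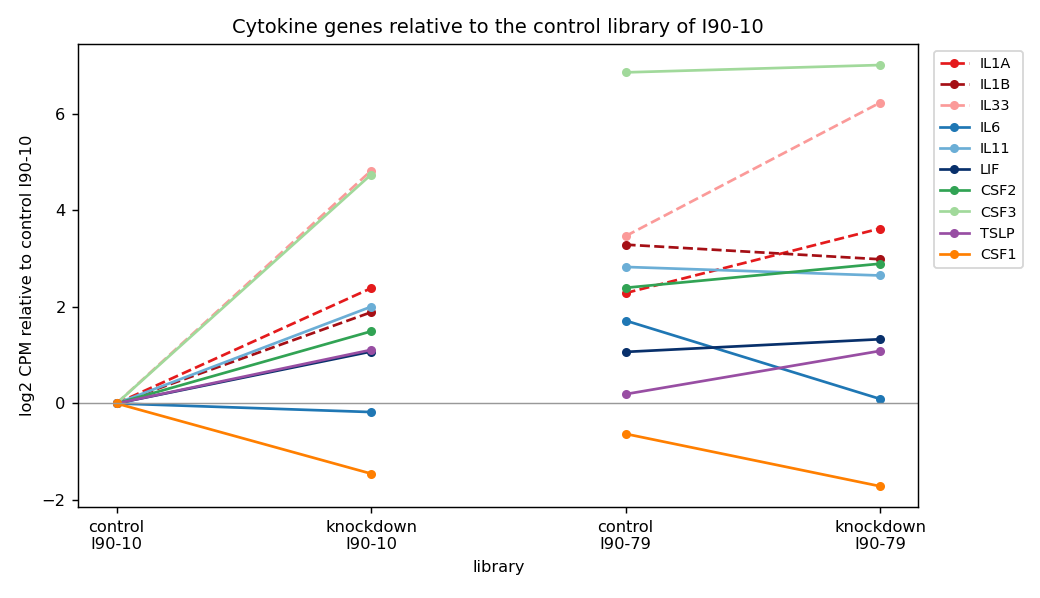
Log2 CPM of the IL-1 family genes (dashed) and of 7 of the cytokine genes (solid) in each library, relative to the control library of I90-10, which is 0 for each gene. IL1B, IL11 and CSF3 stand well above 0 in both I90-79 libraries, while CSF1 lies below 0 in the 3 other libraries.

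A mean of 5 CPM or more was reached by 10657 of the genes tested, members of the set among them. Outside the set, the centred log2 CPM profiles over the 4 libraries nearest to IL6 were those of MMD, HELLS, CXCL10, ASPM and KIF4A. They lay at root mean square distances of 0.313 to 0.338. CXCL10, an interferon-induced chemokine, measured 15.4 and 32.9 CPM in the controls and 6.99 and 12.2 CPM upon knockdown. Nearest to TSLP lay MYG1, GNG2, RITA1, MAP9 and PRPSAP2, at distances of 0.0080 to 0.0262. MYG1 measured 21.2 and 24.4 CPM in the controls and 46.3 and 45.0 CPM upon knockdown. The nearest gene to IL6, at 0.313, thus lay farther off than the nearest to TSLP, at 0.0080. In I90-10, IL6 went from 25.6 to 22.7 CPM, a smaller fall than that of CXCL10. With 4 libraries, a near profile does not show that genes are regulated together.

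All 9 fibroblast markers were above 1 CPM in each library. With the block LUM was called up (0.83) and PDGFRB (−0.68) and THY1 (−0.99) down upon knockdown, against 14.5% of all genes in either direction. COL1A1, the most abundant of the markers, measured 12550 and 5660 CPM in the controls and 10566 and 5818 CPM upon knockdown, lower in both I90-79 libraries. The summed fibroblast markers were 34639 and 18769 CPM in the controls and 33543 and 21468 CPM upon knockdown. The isolate difference was called for 5 of the 9, all lower in I90-79 (1.67% of all genes tested were called in either direction). The sums were lower in I90-79, where IL11, CSF2 and CSF3 were higher, and their part in those values was not tested. Of 8 blood cell markers, CD3E, LYZ and HBA1 had 0 reads and 7 had at most 3 reads in any library, and the most abundant, CD14, reached at most 0.173 CPM. Of the endothelial markers found, CDH5 had 0 reads, while TEK, the most abundant, stood at 148 and 148 CPM in the controls against 131 and 132 CPM upon knockdown. The other endothelial markers summed to 1.497 and 1.491 CPM in the controls and 4.33 and 3.39 CPM upon knockdown, and VWF, from 1.36 and 0.922 CPM to 4.15 and 2.59 CPM, was called up with the block (1.55, adjusted p = 0.00357). The part of these markers in the values of the 10 genes was not tested. The epithelial marker KRT5 had 0 reads and EPCAM, the most abundant, reached at most 0.680 CPM.

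The word GCAGTT occurred in 31.8% of the 3′ UTRs of at least 100 bases. Among genes tested, the median log2-fold change was −0.16 for the 4477 with the word, 0.07 for the 7879 without it and −0.32 for the 720 with at least 3 copies. These genes were not matched for UTR length, and no other word was compared. The word and the length of the UTR can therefore not be told apart in these medians. Of the 10 genes, IL6ST held 3 copies, TSLP 2, and IL6 and LIFR 1 each, and the other 6 held 0. HNRNPD held 1 copy. The part of the word in the values of single genes was not tested.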

How the data were processed

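RNA was sequenced in 2 control and 2 HMGB1 knockdown libraries of IMR90 cells. The authors selected poly(A) RNA, sequenced it in pairs, aligned reads to hg19 using STAR, and deposited raw featureCounts counts per Ensembl gene. Tool versions and the strand setting are not given in the sources used here, so reads of overlapping genes may not be told apart. The deposited column of gene lengths, an exonic length in bases, was used for RPKM only. Genes were filtered with filterByExpr, normalised by TMM, and tested in edgeR 4.0.16 (R 4.3.3) by the quasi-likelihood test with Benjamini-Hochberg adjustment over all 15398 genes tested. The SE of a fold change is its size over the root of the F statistic. Replicate numbers name the isolate, so they pair the samples. Deviations of same-numbered libraries correlated at 0.46 over these genes, and the isolate block is given as an alternative beside each result it changes. Only the isolate label says that replicates are separate cultures, and p-values measure the spread between these libraries. Exact 95% intervals cover counting error only. A count of 0 allows up to 3 reads, or 0.0813 to 0.104 CPM. The edgeR fits with and without the block were tested on simulated counts that held no difference between isolates. That test cannot show how the fits behave where isolates differ.

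The genes and lists were chosen with earlier results of these data known. Named genes were HMGB1, the 10 genes, from each list those called in either fit at a mean of at least 1 CPM or else the 3 smallest p, JAK1, STAT3, SOCS3, the most abundant marker of each cell type, and the 5 nearest profiles to IL6 and TSLP. A gene that this rule names is not reported here. OSM, CRLF2, the receptors without reads, IL1B, TNF, VWF, LUM, PDGFRB, THY1 and the 0-read markers were named outside this rule, after their values were seen. Alternatives were DESeq2 1.42.0 with and without the block, RUVs with 1 factor, other size factors and filters, other thresholds, and leaving out each library. The authors' own table of fold changes was not used here.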

Additional observations from a re-analysis of the deposited data

Results flagged for a closer look

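Within-isolate changes of 2 of the 10 genes took opposite directions. The log2-fold change of IL11 was 2.003 in I90-10 and −0.18 in I90-79, and that of LIFR was −0.13 and 0.28. Each value compares 1 knockdown with 1 control library, and the difference between the isolates was not tested. The IL11 value in I90-10 rests on a control of 198 reads against 780, and all 4 counting intervals lie away from 0.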

How the results depend on the processing

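Without the block, 31 genes were called, 10 up and 21 down. With the replicate block, which follows the isolate, the fit called 1028 genes up and 1207 down, of the 10 genes 1 up and 1 down (TSLP and CSF1), and of the pathway genes 14 up and 10 down, and it changed no other call among the 10 genes. DESeq2 gave 728 and 818, with 1 and 1 of the 10 genes and 7 and 7 of the pathway genes. DESeq2 with the block gave 967 and 1091, with 1 and 1, and 14 and 9. RUVs with 1 factor and DESeq2 gave 877 and 939, with 1 and 1, and 14 and 7. No filter on low counts gave 1118 and 1275, with 2 and 2 (TSLP and IL6ST up, CSF1 and IL6 down), and 15 and 9. At least 10 counts in every library gave 6 genes up and 0 pathway genes down, as did DESeq2 size factors for the pathway genes. An adjusted p below 0.05 with any fold change gave 606 and 693, with 1 and 1, and 5 and 5. The causes of these shifts were not tested.

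Leaving out 1 library gave 0 (either knockdown library) to 305 genes up (control of I90-79) and 0 to 337 down, 0 to 2 of the 10 genes up and 0 to 1 down, and 0 to 6 pathway genes up and 0 to 5 down. HMGB1 ranged from −3.77 to −3.38. Without the control of I90-10 and without the knockdown of I90-79 the changes turned negative for IL11 (−0.47 and −0.015), CSF2 (−0.038 and −0.16) and CSF3 (−0.58 and −1.13), and without the control of I90-79 they reached 2.36, 2.36 and 6.26. LIFR ranged from −0.062 without the knockdown of I90-79 to 0.22 without that of I90-10. Where 1 library was left in a group, it was taken to vary like the other group. The isolate difference, added after the data were seen, was called for 257 genes, for 913 without a filter (5 of the 10 genes), and for 0 of the 10 with at least 10 counts in every library. Of 129 alternative values of the 10 genes, 104 kept direction and call, and 7 changed sign. The other 18 passed the thresholds of their setting, where the reported value did not pass its own. For CSF1 and TSLP this includes the unchanged value at the looser threshold (adjusted p below 0.05 with any fold change). CSF2 and CSF3 rest on as few as 30 and 8 reads in a library, which limits their precision.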
